A study of Rattus norvegicus with 32 samples.

Results

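The dentate gyrus (DG) was compared with the cornu ammonis (CA) in rats that had received saline only. Samples were chosen by their labels, as the 4 DG and the 4 CA libraries of saline-injected animals, 8 of the 32 RNA-seq libraries of the series. The series covers 4 brain regions and 2 treatments, with 4 libraries in each group, and DG Sal 3, for example, is the saline DG library of replicate 3. All 8 came from adult male Sprague-Dawley rats given saline intraperitoneally (1 mL/kg, 4 injections, 2 h apart), with tissue taken a day after the last injection. The same regions of rats given methamphetamine (METH, 10 mg/kg in each of the 4 injections) gave a further 8 libraries, which do not enter the saline comparison. Both hippocampal fields were scooped out of the tissue by hand, so the libraries hold every cell type of the piece, and total RNA was depleted of ribosomal RNA before sequencing. No source used here ties each library to an animal of its own, so p-values measure only the spread between these samples.

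The DG and the CA fields are neighbouring parts of the hippocampal formation. Granule cells, the principal neurons of the DG, are small and densely packed, their identity is maintained by the transcription factor PROX1, and their mossy fibres run to CA3. The CA fields hold larger pyramidal neurons. CA1, CA2 and CA3 pyramidal cells each carry their own markers, such as WFS1 in CA1, RGS14 in CA2 and the kainate receptor subunit GRIK4 and BOK in CA3. Both granule and pyramidal neurons are glutamatergic cells of the pallium and use the vesicular glutamate transporter SLC17A7, whereas thalamic and habenular neurons use SLC17A6 and striatal neurons are GABAergic and carry PPP1R1B.

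Total counts ranged from 11600333 to 14564458 in the DG libraries and from 12888040 to 19350101 in the CA libraries, and 18922 to 19662 of 28914 gene names had a read. A single read was worth 0.0557 to 0.085 CPM (counts scaled to the upper-quartile library size), the unit of all levels below. Header paths of the count files carry the name RNA3 for DG Sal 1, 2 and 4 and CA Sal 4. DG Sal 3 carries the name JJ, CA Sal 3 carries RNA2, and CA Sal 1 and 2 carry the word merged. Whether these names stand for sequencing runs is not known, and the merged libraries could hold reads of several runs. The paper's methods mention sequencing batches without assigning libraries to them. The only name shared by both regions covers 1 CA library, too few for a comparison within a name. Sequencing batch and region therefore cannot be told apart here. The same headers number DG Sal 1 and 2 as 20 and 21, the numbers of CA METH 1 and 2, and number DG METH 1 and 2 as 14 and 15, the numbers of CA Sal 1 and 2. Libraries of the nucleus accumbens follow the CA, with 14 and 15 in saline and 20 and 21 in METH rats, and the numbers 22 to 25 go with the same treatment in all 3 regions. DG libraries 1 and 2 of both treatments are thus the ones that run against the rest. Whether the treatment labels of these 4 DG libraries are exchanged was not tested. Groups follow the labels throughout, and each saline or METH value of the DG below holds only as far as those labels do.

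Markers were checked first, because the comparison rests on how well each library represents its region. PROX1, the granule cell factor, is encoded by Prox1 (rn6 chromosome 13, 108382399 to 108443294). Its level was 146, 25.4, 29.1 and 73.8 CPM in DG Sal 1 to 4 and 246, 32.5, 289 and 81.4 CPM in CA Sal 1 to 4. The highest values, in CA Sal 1 and 3, were in CA libraries. C1ql2, a synaptic protein of mossy fibres, was at 47.8, 1.1, 6.99 and 12.5 CPM in the DG and at 79.1, 6.97, 96.7 and 26.1 CPM in the CA, in the same order of libraries. Neither granule gene separated the regions, and the libraries labelled DG were not the richer ones. Dsp, another granule marker, stayed between 0.935 and 3.66 CPM in the DG and between 1.04 and 5.62 CPM in the CA, and Tdo2 had no read in any DG library. Calb1, the calcium buffer of mature granule and CA1 cells, ranged from 15.7 to 134 CPM in the DG and from 52.3 to 149 CPM in the CA.

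DG Sal 3 stood apart from every other library in pallial neuron genes. Slc17a7 (chromosome 1, 101161252 to 101173174) was at 1522, 1273, 3.81 and 1092 CPM in DG Sal 1 to 4 and at 2120.2, 1651, 1829 and 1523 CPM in CA Sal 1 to 4. DG Sal 3 thus had 61 reads of this gene where the other DG libraries had 13422 to 20076. Neurod6, a factor of pyramidal neurons, was at 124, 43, 0.0624 and 71.8 CPM in the DG and at 231, 96.6, 102 and 99.7 CPM in the CA, and the DG Sal 3 value is 1 read. Neurod2, which is expressed across pallial excitatory neurons, had 0 reads in DG Sal 3, which allows a level of up to 0.187 CPM from counting error alone, beside 45.3 to 79.5 CPM in the other DG libraries. Neurod1 (0.25 CPM) and Rtn4rl2 (0.562 CPM) were also near 0 in DG Sal 3 only.

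The same library was high in genes of striatal and GABAergic neurons. Ppp1r1b, which encodes the dopamine-regulated phosphatase inhibitor DARPP-32, was at 56.1, 96.4, 532 and 77.6 CPM in the DG and between 56.1 and 111 CPM in the CA. The adenosine receptor gene Adora2a was at 127 CPM and the dopamine receptor gene Drd1 at 119 CPM in DG Sal 3, while the other 7 libraries lay between 1.6 and 17.2 CPM for Adora2a and between 3.73 and 14.9 CPM for Drd1. Gad1, the GABA-synthesizing enzyme, was at 604 CPM in DG Sal 3 and at 145 to 243 CPM in the other 7. Summed over 11 striatal markers, DG Sal 3 reached 2057 CPM, the other DG libraries 243 to 336 CPM and the CA libraries 183 to 403 CPM. DG Sal 3 has the label of the DG but not its glutamatergic genes, so each result is given with and without it.

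DG Sal 4 differed in another way. Chrna3 and Chrnb4, nicotinic receptor subunits abundant in the medial habenula, were at 88 and 179.7 CPM in DG Sal 4, against 0.668 to 5.23 CPM and 0.255 to 1.97 CPM in the other 7 libraries. Ttr, the transthyretin gene that marks the choroid plexus, was at 0.0758, 147, 0.811 and 1785 CPM in the DG and at 12.7, 1831, 3.26 and 1.04 CPM in the CA. High values therefore occurred in DG Sal 4, CA Sal 2 and, less so, DG Sal 2. Mbp, a myelin gene, was at 1541, 2795, 3727 and 6109.6 CPM in DG Sal 1 to 4 and between 1436 and 3259.8 CPM in the CA, so that DG Sal 4 was the highest of the 8. In bulk tissue, fewer cells of a type and less RNA per cell cannot be told apart, for these and all markers below.

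**Figure D1:**
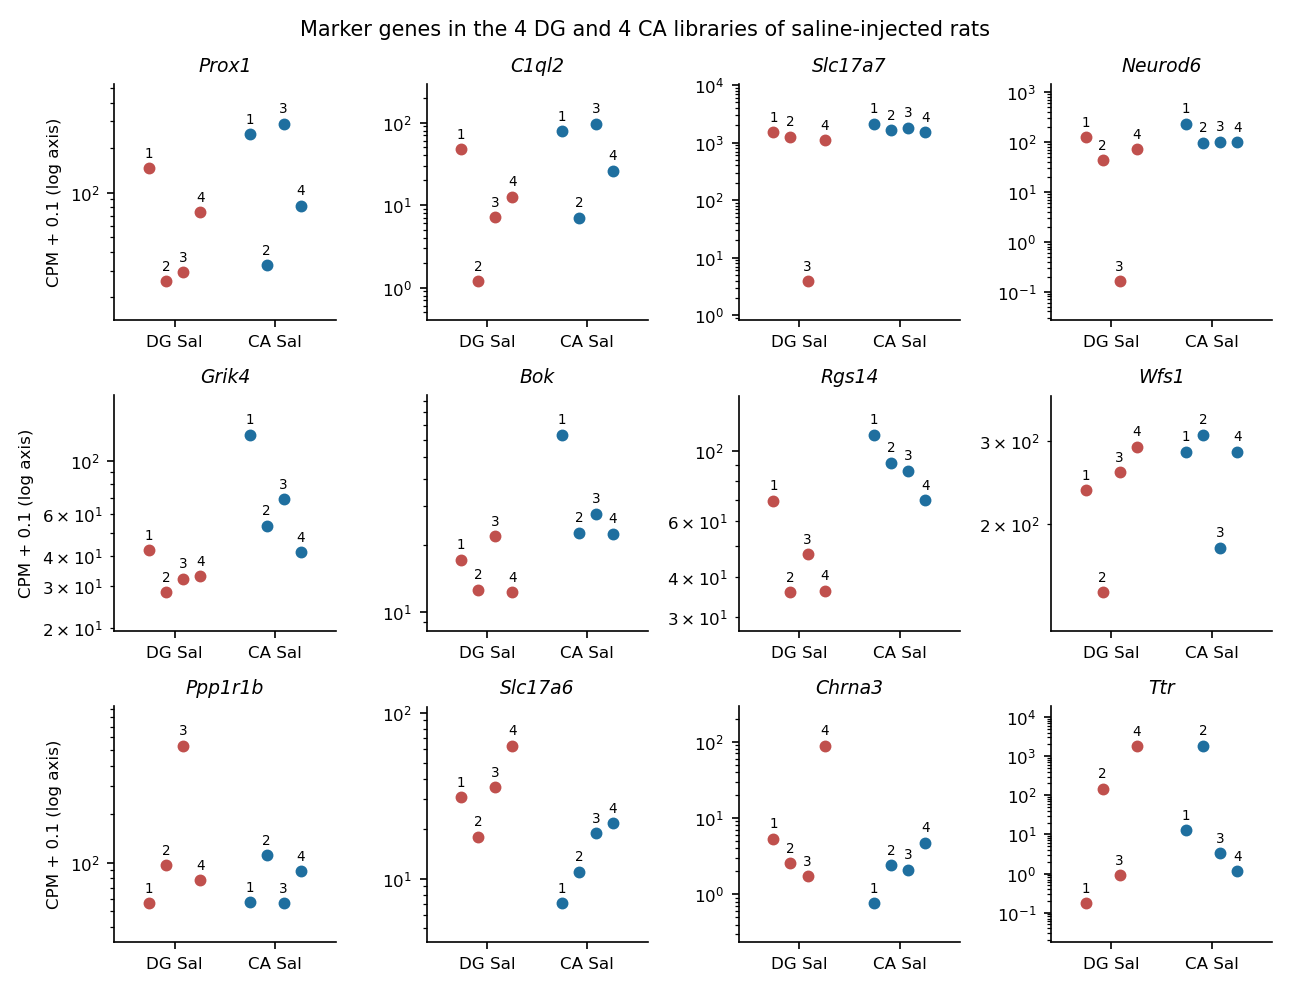
Levels of 12 marker genes (CPM + 0.1, logarithmic axis) in the 4 DG libraries (red) and 4 CA libraries (blue) of saline-injected rats, with each point labelled by its replicate number. Prox1 and C1ql2 overlap between the regions, DG Sal 3 is far below all others for Slc17a7 and Neurod6 and above them for Ppp1r1b, and DG Sal 4 is the highest for Chrna3.

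Libraries of the DG differed from each other as much as from those of the CA. Over the 14630 genes tested, the root mean square difference of log2(CPM + 1) was 0.47 to 0.736 between DG libraries (median 0.686, 6 pairs), 0.376 to 0.478 between CA libraries (median 0.449, 6 pairs) and 0.321 to 0.746 between a DG and a CA library (median 0.593, 16 pairs). Every DG library had a CA library as its nearest neighbour. DG Sal 1 and 2 were nearest to CA Sal 4 (0.321 and 0.359), and DG Sal 3 and 4 were nearest to CA Sal 2 (0.614 and 0.599). CA Sal 2, 3 and 4 in turn were nearest to DG Sal 1, and only CA Sal 1 had a library of its own region (CA Sal 3, 0.376) as the nearest. The common biological coefficient of variation, the spread of a gene between samples beyond counting error, was 0.35 in the DG, 0.309 in the DG without DG Sal 3 and 0.22 in the CA. All pairs of libraries differed by more than sampling noise (chi-square per gene from 10.98 to 112 over all pairs), so none were merged.

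**Figure D2:**
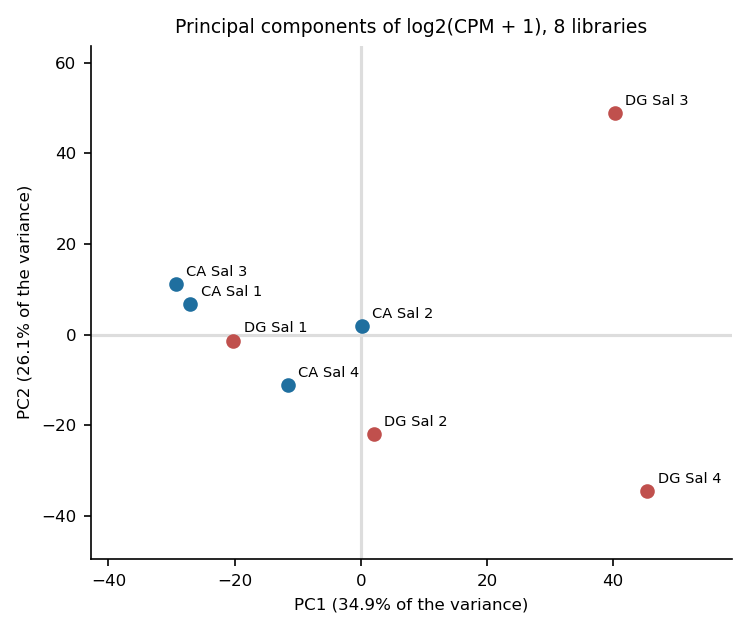
First and second principal components of log2(CPM + 1) over the genes tested, with 1 point per library (DG red, CA blue). DG Sal 3 (40.3 on PC1, 48.8 on PC2) and DG Sal 4 (45.4, -34.5) lie far from each other and from the other 6, and DG Sal 1 lies among the CA libraries.

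Genes were then compared between the regions with the quasi-likelihood test of edgeR. No gene had a false discovery rate (FDR) under 0.01 with more than a 2-fold difference, in either direction, among 14630 tested (0 percent), and none reached an FDR under 0.05. The lowest FDR was 0.588. At an unadjusted p under 0.05, 627 genes were higher in the DG (4.29 percent of those tested) and 583 were higher in the CA (3.98 percent), together 8.27 percent. DESeq2 called 3 genes on each side at an FDR under 0.05 and none with an FDR under 0.01 and a 2-fold difference. Myl9, Lama1 and Pdzd7 were the genes higher in the DG, and Hspa2, Zdhhc14 and Plxna1 the genes higher in the CA. Levels in the groups did not overlap for 299 genes higher in the DG (2.04 percent) and 253 higher in the CA (1.73 percent), 3.77 percent in all. For values in random order, 2 groups of 4 do not overlap with a probability of 0.0286.

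Without DG Sal 3, 14747 genes were tested and again 0 were called in either direction, at either threshold, with a lowest FDR of 0.647. At an unadjusted p under 0.05, 545 genes were higher in the DG (3.7 percent) and 503 were higher in the CA (3.41 percent), together 7.11 percent. DESeq2 called 1 gene higher in the DG at an FDR under 0.05 (Mcc, FDR 0.0468) and 0 higher in the CA. The groups, now of 3 and 4 libraries, did not overlap for 459 genes higher in the DG (3.11 percent) and 476 higher in the CA (3.23 percent), 6.34 percent in all. Values in random order separate more often in smaller groups, so this share cannot be set against that of all 8 libraries. Without DG Sal 4, 432 genes at an unadjusted p under 0.05 favoured the DG and 352 the CA, without both libraries 341 and 355, and 0 passed an FDR of 0.05 in either fit. Without DG Sal 1 and 2 these counts were 2030 and 1466, and 1 gene passed an FDR of 0.05. This was Pde1c, a calmodulin-dependent phosphodiesterase, higher in the DG (log2 fold change 2.31, FDR 0.0338), which was outside the rule for named genes and was chosen after its value was seen.

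The genes named next had the lowest p among those whose groups did not overlap. They are no calls, as each had an FDR of 0.588 with all 8 libraries, and 10 are given in each direction. Vessel and matrix genes stood among those higher in the DG. Sox7, a transcription factor of endothelial cells (chromosome 15, 47293699 to 47300460), was at 1.29, 1.53, 1.19 and 1.3 CPM in DG Sal 1 to 4 and at 0.501, 0.45, 0.474 and 0.4 CPM in CA Sal 1 to 4. At this depth these are levels of 5 to 19 reads, and the fitted difference was 1.51 ± 0.24 (log2 fold change of DG over CA ± SE). Myl9, the regulatory myosin light chain of smooth muscle, was at 6.9, 8.84, 8.05 and 8.3 CPM in the DG and at 3.17, 5.32, 3.38 and 3.84 CPM in the CA (log2 fold change 1.03 ± 0.2). Lama1, a laminin chain of basement membranes, was at 5.08, 9.26, 7.99 and 8.38 CPM against 3.12, 4.12, 2.73 and 3.6 CPM (log2 fold change 1.18 ± 0.23). The rule by which these 3 genes were chosen places every DG library above every CA library.

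The other genes on this side were Serpind1, an inhibitor of thrombin (1.13), Pdzd7, a scaffold protein known from sensory hair cells (0.92), the phospholipase gene Pnpla7 (0.72), Nat8f5 of an acetyltransferase family (1.01), Xkr6 (0.91) and Ccdc57 (0.45), each with its log2 fold change. RF00431, a non-coding RNA family placed on several chromosomes, was also among them (0.69), and its reads cannot be tied to 1 locus. Levels of Pnpla7 were 21.8, 18.9, 19.1 and 25 CPM in the DG and 12.9, 15.3, 10.6 and 12.7 CPM in the CA. Ccdc57 had the narrowest groups, with 16.8 to 18.9 CPM in the DG and 12.7 to 13.9 CPM in the CA.

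Among the genes higher in the CA, Hspa2, a chaperone of the HSP70 family (chromosome 6, 99433550 to 99436289), was at 15.8, 12.2, 9.23 and 10.3 CPM in DG Sal 1 to 4 and at 27.4, 26.8, 24.6 and 18.8 CPM in CA Sal 1 to 4. Its log2 fold change was -1.04 ± 0.2, the largest of the 10. Plxna1, a receptor for semaphorins, which guide axons, was at 175, 178, 159 and 149 CPM in the DG and at 314, 244, 223 and 233 CPM in the CA (log2 fold change -0.62 ± 0.13). Cpeb1, which controls the translation of dendritic mRNAs through their poly(A) tails, was at 33.1, 23, 22 and 26.3 CPM against 50.7, 40, 55 and 37.5 CPM (log2 fold change -0.81 ± 0.17). That every CA library lay above every DG library for these genes follows from the rule that chose them. The remaining 7 were Il6r, the interleukin 6 receptor (-0.93), Sec14l2, a lipid-binding protein (-0.73), the palmitoyltransferase gene Zdhhc14 (-0.60), Sh3rf1 (-0.57), AC096239.3 (-0.56), Pcdhga11 of the clustered protocadherins (-0.54) and Glo1, a glyoxalase (-0.52).

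**Figure D3:**
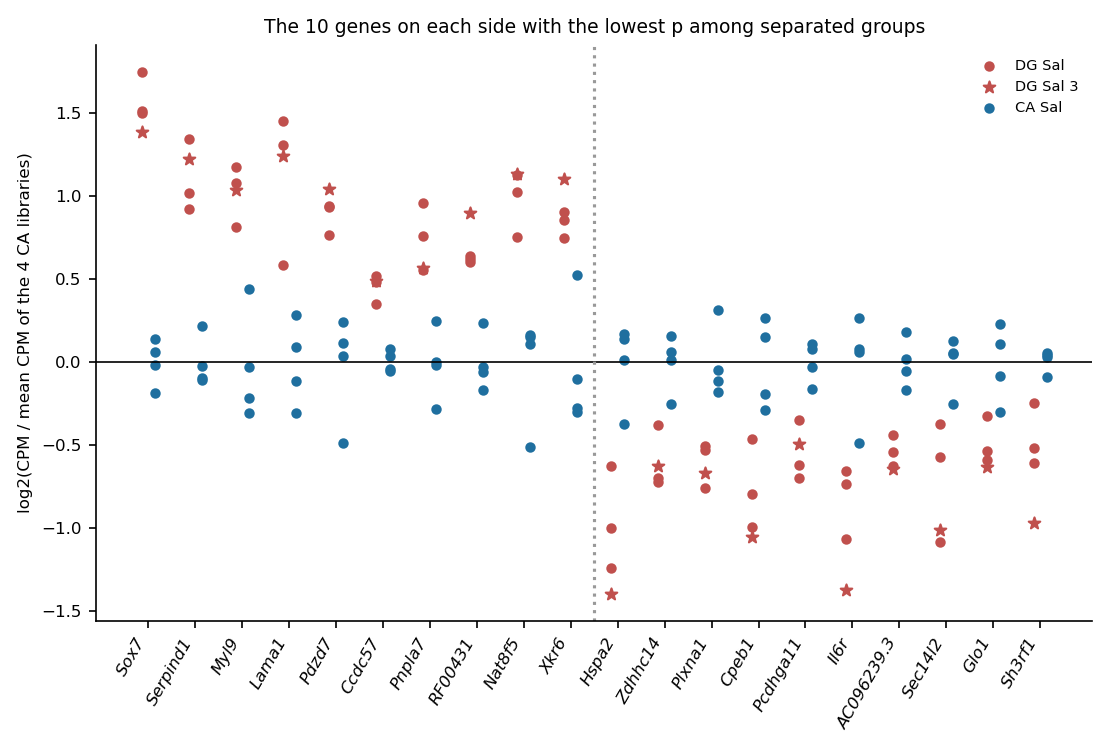
Level in each library relative to the mean of the 4 CA libraries (log2 of the CPM ratio) for the 10 genes per direction with the lowest p among genes whose groups did not overlap, with DG higher on the left of the dotted line and CA higher on the right. The choice of genes itself keeps DG Sal 3 (star) and the other DG libraries (red) apart from the CA libraries, and none of the 20 passed the FDR.

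Without DG Sal 3 the same rule added 5 genes on the DG side, and the groups of 4 of them, Stab1, Nr1d1, Mcc and Crispld2, overlap when that library is included. Stab1, a scavenger receptor of macrophages and sinusoidal endothelium, was at 5.53, 6.2 and 6.59 CPM in DG Sal 1, 2 and 4, at 3.62 CPM in DG Sal 3 and at 2.72 to 3.62 CPM in the CA (log2 fold change 0.95 ± 0.17 without DG Sal 3). Nr1d1, the clock repressor REV-ERBα, was at 105, 163 and 102 CPM in those 3 libraries, at 53 CPM in DG Sal 3 and at 52.3 to 72.6 CPM in the CA (0.94 ± 0.19). Mcc had a log2 fold change of 0.99 ± 0.16 and Crispld2 of 0.92 ± 0.18. In these 4 genes DG Sal 3 was at or near the level of the CA. Pcdhga1, a further clustered protocadherin, had a difference of 1.69 ± 0.36 at levels of at most 5.1 CPM, and its groups did not overlap with DG Sal 3 either. Protocadherins of a cluster are close paralogs that lie side by side, so reads can be split among them.

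On the CA side the fit without DG Sal 3 added Pcdhb5 (-0.71), Uros, an enzyme of haem synthesis (-0.67, without overlap in either fit), Olfm4, Vstm2l and Zfp521. Olfm4 was at 0.0758 to 0.255 CPM in DG Sal 1, 2 and 4, which for DG Sal 1 is a single read, and at 0.724 to 2.02 CPM in the CA, and DG Sal 3 had 1.62 CPM. Vstm2l was at 31.8, 33.6 and 28.5 CPM in DG Sal 1, 2 and 4 and at 39.9 to 46.3 CPM in the CA, but at 90.2 CPM in DG Sal 3. Zfp521, a zinc finger factor with high expression in the striatum, was at 8.57, 9.43 and 9.36 CPM against 11.2 to 16.1 CPM, and at 62.3 CPM in DG Sal 3. For Vstm2l and Zfp521 the direction itself turned on that library, with log2 fold changes of 0.10 and 0.68 with it and of -0.46 and -0.62 without it. Each gene in this paragraph and the one before had an FDR of 0.647 in the fit of 7 libraries.

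Genes that define the hippocampal fields were taken next as lists. Over all genes tested, 8453 of 14630 were higher in the DG and 6177 in the CA. Without DG Sal 3 these counts were 7835 and 6912 of 14747. Counts of list members in each direction, here and below, are therefore not to be set against an even split. Of 17 dentate granule markers tested, 2 were higher in the DG and 15 in the CA, and their log2 fold changes had a median of -0.67 (0.04 over all genes tested). At an unadjusted p under 0.05 this list had 2 members, both higher in the CA (3.98 percent of all genes tested were at that level), and no member passed the FDR. Il16 was at 25.7, 5.61, 3.87 and 4.39 CPM in the DG and at 79.3, 22.3, 61.6 and 12.2 CPM in the CA (log2 fold change -2.15 ± 0.79), and Glis3 differed by -0.49 ± 0.21. The groups overlapped for both genes. Without DG Sal 3 the list had 3 members higher in the DG, 14 higher in the CA and a median of -0.64. The count of 2 depended on single libraries. It fell to 0 without DG Sal 3, CA Sal 1 or CA Sal 3, and rose to 9 without DG Sal 1. In the fit without DG Sal 1, 14.5 percent of all genes were at that p in either direction. The median stayed between -0.83 and -0.44 when each library was left out in turn. Summed over the 19 members found in the files, granule markers reached 468 to 1008 CPM in the DG and 699.5 to 1589.6 CPM in the CA, with the highest sum in CA Sal 3.

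Markers of CA3 pyramidal neurons leaned to the CA, and none passed the FDR. Of 10 tested, 8 favoured the CA, 5 of them at an unadjusted p under 0.05, a level that 3.98 percent of all genes reached on that side, and the median difference was -0.83 (-0.75 and 4 without DG Sal 3). Without CA Sal 1, 7 favoured the CA, 3 of them at that level, and the median was -0.41. Nptx1, a pentraxin that clusters AMPA receptors, was at 492, 403, 74 and 411 CPM in DG Sal 1 to 4 and at 1391, 635, 841 and 611 CPM in CA Sal 1 to 4 (log2 fold change -1.33 ± 0.53, and -1.0 ± 0.30 without DG Sal 3). Bok (chromosome 9, 100829552 to 100840504) was at 17.1, 12.5, 21.9 and 12.2 CPM against 63, 22.7, 27.7 and 22.5 CPM (-1.09 ± 0.37). All CA libraries were above all DG libraries for both genes, with CA Sal 1 far above the rest. Grik4, the kainate receptor subunit of CA3, was at 42.1, 28.2, 32.1 and 32.9 CPM in the DG and at 128, 53.4, 68.9 and 41.3 CPM in the CA (-1.11 ± 0.33), so that DG Sal 1 and CA Sal 4 overlapped. Cpne4 (-1.93 ± 0.57) and Homer3, a postsynaptic scaffold (-1.28 ± 0.50), were the other 2. Iyd was at 0.303 CPM or below in all 8 libraries.

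CA2 markers were mixed, with 5 of 9 higher in the DG and a median of 0.08, and with 2 of 9 and a median of -0.21 without DG Sal 3. Rgs14, a regulator of G proteins that restrains plasticity in CA2, was at 69.4, 35.8, 47.2 and 36.2 CPM in the DG and at 112, 91.5, 86.4 and 69.6 CPM in the CA (log2 fold change -0.93 ± 0.24). The groups did not overlap, although DG Sal 1 came close to CA Sal 4. Amigo2 and Pcp4, by contrast, overlapped widely, with 7.73 to 25.3 CPM and 43.5 to 142 CPM in the DG and 8.31 to 22.9 CPM and 54.2 to 84.7 CPM in the CA. CA1 markers had 3 of 9 members higher in the DG, none at an unadjusted p under 0.05, and a median of -0.19 (0.04 without DG Sal 3). Wfs1 was at 143 to 292 CPM in the DG and at 178 to 309.6 CPM in the CA, and Pou3f1 at 25.8 to 55.9 and 17.2 to 64.7 CPM. Fibcd1 had at most 1 read in any library.

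Pallial excitatory genes had 10 of 11 members higher in the CA (median -0.51), and 9 of 11 without DG Sal 3 (-0.45). Slc17a7 differed by -0.87 ± 1.08 with DG Sal 3 and by -0.46 ± 0.18 without it. Its levels did not overlap in either case, although DG Sal 1 lay barely below CA Sal 4. Mossy cells of the dentate hilus had 4 of 7 markers higher in the DG, with a median of 0.20, which was -0.12 without DG Sal 3. Their summed level was 55.8 to 69 CPM in DG Sal 1, 2 and 4, 202 CPM in DG Sal 3 and 63.5 to 92.4 CPM in the CA. Genes of newborn neurons, which the DG makes throughout life, had a median of 0.20 over 8 tested, -0.19 without DG Sal 3, and no member at an unadjusted p under 0.05 in either fit. Dcx, the neuroblast marker, was at 32.5 to 77.1 CPM in the DG and at 39 to 52.5 CPM in the CA.

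Several lists of cells outside the hippocampal principal layers were higher in the DG, and 1 or 2 libraries carried most of the difference. All 10 striatal markers tested were higher in the DG (median 1.98 on the log2 scale), and 7 of 10 with a median of 0.11 without DG Sal 3. Of 11 interneuron markers, 10 were higher in the DG (median 0.51), and 7 without DG Sal 3 (0.06). Rgs9, a striatal regulator of G protein signals, differed by 2.40 ± 1.00 with all libraries and was at 142 CPM in DG Sal 3, 74.1 CPM in DG Sal 4 and 3.23 to 15.8 CPM in the other 6. Npy, a peptide gene of many interneurons, was at 0 in the 4 DG libraries and at 0.075 CPM or below in the CA, although Gad1 and Gad2 were at 145 CPM or above throughout, and Cldn5, a tight junction gene of endothelium, had no read at all. Nothing is read from these levels about the cells that use the genes.

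Thalamic and habenular markers had 10 of 13 members higher in the DG, 5 of them at an unadjusted p under 0.05 (4.29 percent of all genes) and 1 lower at that level (Lhx9), with a median of 0.48 (0.35 without DG Sal 3, with 3 at that level). Slc17a6, the glutamate transporter of thalamic and habenular neurons, was at 30.7, 17.8, 35.4 and 63 CPM in DG Sal 1 to 4 and at 7.01, 10.9, 18.7 and 21.5 CPM in CA Sal 1 to 4 (log2 fold change 1.34 ± 0.45). Only DG Sal 2 lay within the range of the CA. Prkcd, a protein kinase C of thalamic relay neurons, was at 64.7 CPM in DG Sal 3 and at 15.5 to 19.8 CPM in the other DG libraries, with 5.85 to 15.9 CPM in the CA (1.35 ± 0.51, and 0.61 ± 0.30 without DG Sal 3). The differences of Chrnb4 (5.65 ± 1.97) and Chrna3 (3.36) rested on DG Sal 4 alone.

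All 12 oligodendrocyte markers were higher in the DG with all libraries (median log2 fold change 0.47) and without DG Sal 3 (0.44), none of them at an unadjusted p under 0.05. Without DG Sal 4 alone, 10 of 12 were higher in the DG, with a median of 0.10. Their summed level ran from 3535 CPM in DG Sal 1 to 13692 CPM in DG Sal 4 and from 3353 to 7269.8 CPM in the CA. Without both DG Sal 3 and DG Sal 4, all 12 were lower in the DG (median -0.24), so the direction turned on these libraries. Vascular and leptomeningeal markers had 8 of 9 members higher in the DG (median 0.86), and 9 of 9 without DG Sal 3 (1.21), with 4 at an unadjusted p under 0.05. In the fit without DG Sal 3, 3.7 percent of all genes were higher in the DG at that p. Col1a1, the fibrillar collagen of meninges and vessel walls, was at 11.7, 25.5, 6.55 and 106 CPM in the DG and at 7.4 to 14.6 CPM in the CA (1.70 ± 0.79, and 2.05 ± 0.68 without DG Sal 3). Vtn, a gene of pericytes, was at 8.79, 14.5, 6.49 and 21 CPM against 5.23 to 9.22 CPM (1.00 ± 0.30 without DG Sal 3). DG Sal 4 was the highest library for both genes, and without DG Sal 4 alone the list had 7 of 9 members higher in the DG, 0 of them at an unadjusted p under 0.05, and a median of 0.23 (0.51 without DG Sal 3 and DG Sal 4). The summed level of the list was 126, 162, 70.8 and 562 CPM in DG Sal 1 to 4 and 79, 259, 114 and 75.3 CPM in CA Sal 1 to 4. It did not follow Sox7, Myl9 and Lama1 library by library, since DG Sal 3 had the lowest sum and CA Sal 2 a sum above those of DG Sal 1, 2 and 3.

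The astrocyte list was close to balance, and the microglial list leaned slightly to the CA. Astrocyte markers had 6 of 12 members higher in the DG and a median of 0.00 (-0.06 without DG Sal 3), with Gfap at 219 to 568 CPM in the DG and 365 to 721 CPM in the CA. Microglial markers had 9 of 10 members higher in the CA, but with a median of only -0.11 (-0.19 without DG Sal 3), and their summed level was 236 to 309 CPM in the DG and 246 to 293 CPM in the CA. No microglial marker was at an unadjusted p under 0.05 with all 8 libraries. Without DG Sal 3, 2 were at that p and 3 had groups that did not overlap, all higher in the CA. Over all genes, 3.41 and 3.23 percent were so on that side in the same fit. Tnr, which encodes tenascin-R of the perineuronal matrix and is made by oligodendrocyte precursors among other cells, was at 198, 167, 215 and 199 CPM in the DG and at 257, 259, 248 and 234 CPM in the CA (-0.36 ± 0.10). Its groups did not overlap. Endothelial markers had 7 of 7 members higher in the DG in both fits (medians 0.29 and 0.36), none of them and 1 of them at an unadjusted p under 0.05. Oligodendrocyte precursor markers had 4 of 7 members higher in the DG (median 0.01, and 2 of 7 with -0.10 without DG Sal 3), and cell cycle genes 4 of 8 (-0.16, and 3 of 8 with -0.50). Choroid plexus markers had 6 of 7 higher in the DG (0.24, and 8 of 8 with 0.54), but single libraries set both size and direction. Without DG Sal 4, 0 of 7 were higher in the DG and the median was -2.33, and without CA Sal 2 all 7 were, 5 of them at an unadjusted p under 0.05, with a median of 5.45. In the fit without CA Sal 2, 6.84 percent of all genes were at that p in either direction. Ependymal markers had 8 of 9 higher in the DG (0.32, and 3 of 9 with -0.34 without DG Sal 3) and cortical glutamatergic markers 7 of 10 (0.24, and 9 of 10 with 0.47). The direction of the cortical list turned without DG Sal 2 (4 of 10, median -0.07).

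**Figure D4:**
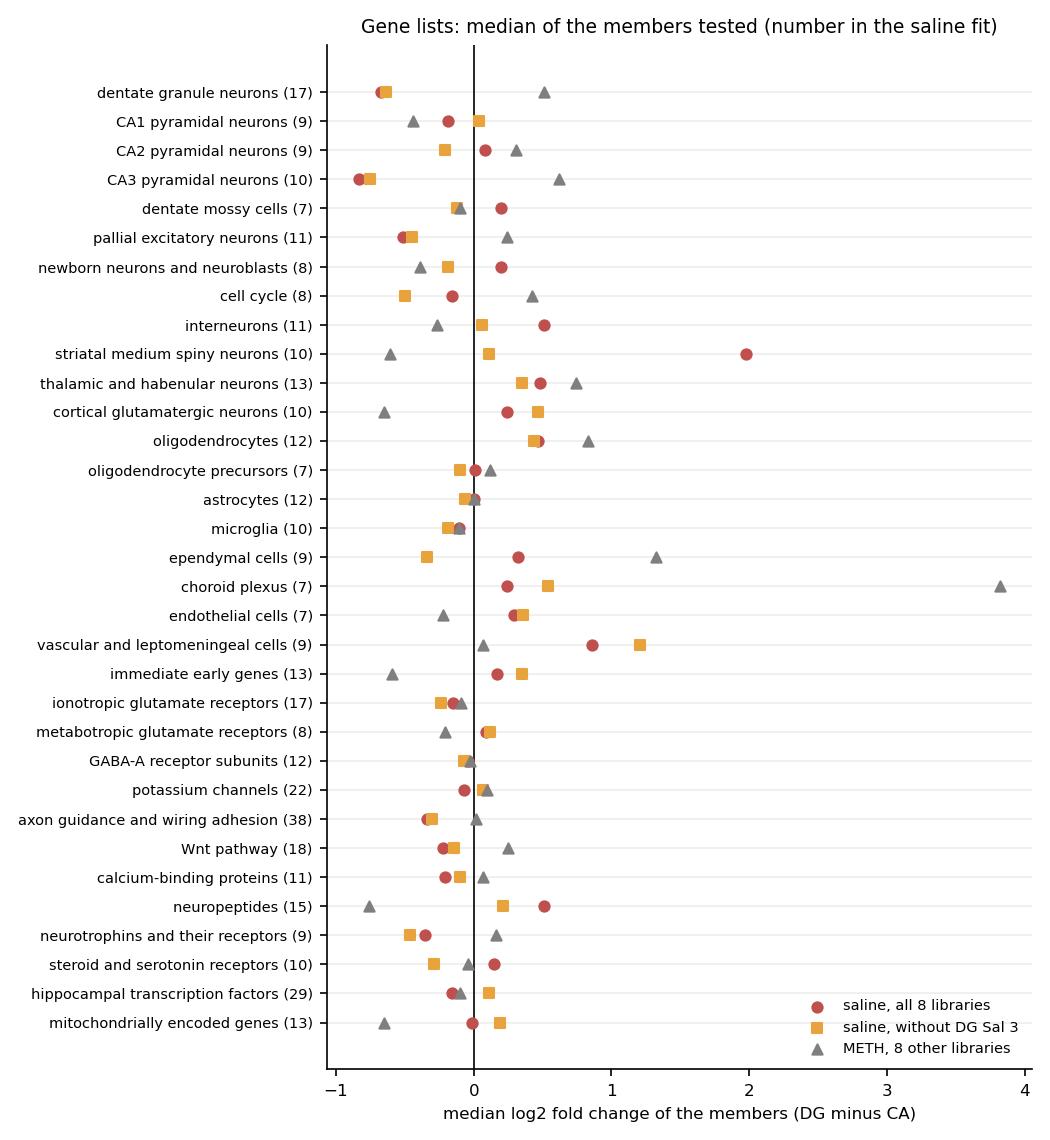
Median log2 fold change of DG over CA for the members of each of 33 gene lists, in the 8 saline libraries (red circles), without DG Sal 3 (orange squares) and in 8 libraries of METH-injected rats (grey triangles). The striatal list moves from 1.98 to 0.11 when DG Sal 3 is left out, and granule and CA3 lists are below 0 in saline and above 0 (0.51 and 0.62) in METH libraries.

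Receptors and channels of hippocampal neurons were compared in the same way, and no member of any list passed the FDR. Ionotropic glutamate receptor genes had 12 of 17 members higher in the CA (median -0.15, and 13 of 17 with -0.24 without DG Sal 3). Gria1, the AMPA receptor subunit GluA1, was at 382, 149.8, 273 and 164 CPM in the DG and at 605, 335, 584 and 332 CPM in the CA (-0.94 ± 0.35), with DG Sal 1 inside the range of the CA. Grm4, a presynaptic metabotropic glutamate receptor, showed the opposite direction, at 27.7, 28.8, 51 and 22.7 CPM in the DG and at 8.46, 14.5, 10.4 and 19.3 CPM in the CA (1.31 ± 0.32, and 1.01 ± 0.27 without DG Sal 3). Every DG library was above every CA library for Grm4, and the other 7 metabotropic receptor genes were split into 3 and 4. GABA-A receptor subunits had 6 of 12 members on each side (median -0.04), with Gabra5, the subunit of extrasynaptic receptors on pyramidal cells, at -0.93 ± 0.38.

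Of 22 potassium channel genes, 14 were higher in the CA (median -0.07, and 9 with 0.07 without DG Sal 3). With all 8 libraries 3 of the 14 reached an unadjusted p under 0.05, a level that 3.98 percent of all genes reached on that side. Kcnt2, a sodium-activated potassium channel, was at 34.8, 51.3, 20.2 and 27.6 CPM in the DG and at 62.9, 39.1, 54.6 and 60.8 CPM in the CA (-0.70 ± 0.28), with DG Sal 2 inside the range of the CA. Hpca, hippocalcin, a calcium sensor that is abundant in pyramidal neurons (chromosome 5, 147294820 to 147303346), was at 152, 171, 134 and 111 CPM against 597, 217, 298 and 198 CPM (-1.20 ± 0.35). The groups did not overlap, and CA Sal 1 was the highest. The other calcium-binding proteins were split into 4 higher in the DG and 6 higher in the CA.

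Axon guidance and adhesion genes had 27 of 38 members higher in the CA, 7 of them at an unadjusted p under 0.05 beside 2 higher in the DG, with a median of -0.34 (28 of 38, 3 beside 0, and -0.30 without DG Sal 3). Over all genes, 3.98 percent were higher in the CA and 4.29 percent higher in the DG at that p. The count of 7 fell to 1 without DG Sal 4 or CA Sal 3, to 2 without CA Sal 1 and to 3 without DG Sal 2, and rose to 13 without DG Sal 1, while 26 to 28 of the 38 were higher in the CA when each library was left out in turn. Nrp1, a co-receptor of semaphorins, was at 125, 42.2, 61.1 and 64.9 CPM in the DG and at 226, 86.9, 171 and 90.7 CPM in the CA (-0.97 ± 0.41), and Slit1, a repulsive cue, at 279, 93.6, 84.6 and 112 CPM and 347, 293, 374 and 189 CPM (-1.08 ± 0.40). DG Sal 1 was inside the range of the CA for both. Efna5, an ephrin, was among the 2 genes higher in the DG (1.66 ± 0.67), at 5.08, 15.6, 11.5 and 14.7 CPM against 0.779, 2.92, 2.19 and 9.11 CPM, and the other was Sema3f (1.68 ± 0.71). Of the Wnt pathway, 12 of 18 genes were higher in the CA (median -0.22, and -0.14 over 19 genes without DG Sal 3), with Wnt4, a ligand, at -1.78 ± 0.63.

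Transcription factors of the hippocampus had 19 of 29 members higher in the CA (median -0.16, and 14 of 29 with 0.11 without DG Sal 3). Hes1, a target of Notch, was at 7.43, 5.95, 4.18 and 8.14 CPM in the DG and at 13.7, 12.1, 9.84 and 8.95 CPM in the CA (-0.80 ± 0.23), without overlap. Nfib, a nuclear factor I gene, was at -0.90 ± 0.32, and Tshz2 was higher in the DG (1.79 ± 0.58) through DG Sal 1 (122 CPM) and DG Sal 4 (227 CPM), as the other DG libraries (43.2 and 44.7 CPM) lay within the CA range of 15.5 to 46.8 CPM. Nr3c2, the mineralocorticoid receptor, which is dense in hippocampal neurons, was at 77.7, 36, 43.9 and 56.4 CPM in the DG and at 155, 71.4, 112 and 70.1 CPM in the CA (-0.93 ± 0.32). It was 1 of 10 steroid and serotonin receptor genes tested, of which 6 were higher in the DG (median 0.15, and 2 with -0.29 without DG Sal 3). Among neurotrophin genes 7 of 9 were higher in the CA (median -0.35, and 8 of 9 with -0.46), none at an unadjusted p under 0.05, while the neurotrophin receptor gene Ngfr was higher in the DG (2.99 ± 0.96) at levels of 0.68 to 10.7 CPM. Neuropeptide genes had 11 of 15 members higher in the DG in both fits (medians 0.51 and 0.21).

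Immediate early genes, which neurons switch on within minutes of activity, had 9 of 13 members higher in the DG (median 0.17, and 12 of 13 with 0.35 without DG Sal 3). Without CA Sal 4 the median was 0.60, with 11 of 13 higher in the DG and 3 of these at an unadjusted p under 0.05, and without DG Sal 1 it was -0.07, with 5 of 13. In the fit without CA Sal 4, 9.32 percent of all genes were at that p in either direction. Fos was at 17.4, 9.09, 4.31 and 14.5 CPM in the DG and at 2.73, 6.37, 2.07 and 19.7 CPM in the CA, and Egr1 at 228, 209, 69.1 and 149 CPM and 83.8, 98.9, 63.8 and 283 CPM. CA Sal 4 was the highest library for both. With all 8 libraries only Egr3 reached an unadjusted p under 0.05, and it was lower in the DG (-0.54). Mitochondrially encoded genes had 6 of 13 members higher in the DG (median -0.01) and 13 of 13 without DG Sal 3 (0.19), and the share of all counts on them was 4.036 to 6.761 percent in the DG and 3.45 to 6.4 percent in the CA.

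The same contrast was finally made in the 4 DG and 4 CA libraries of METH-injected rats, none of which enter the saline comparison. These libraries were uneven in markers as well. DG METH 3 had a summed choroid plexus level of 6496 CPM, with 9.85 to 31.2 CPM in the other DG libraries. Its summed granule level was 430.4 CPM, with 1164 to 1501 CPM in the others. CA METH 3 had a summed striatal level of 751 CPM, with 217 to 253 CPM in the other CA libraries. METH medians and shares of direction below include both libraries. No gene was called there either among 14842 tested, at an FDR under 0.01 with a 2-fold difference or at an FDR under 0.05, and 1124 genes were higher in the DG (7.57 percent) and 1164 higher in the CA (7.84 percent) at an unadjusted p under 0.05. This count of 0 at an FDR under 0.05 turned on single libraries, since without DG METH 3 there were 68 genes higher in the DG and 70 higher in the CA, and without DG METH 1 or CA METH 1 there were 6 and 1, all higher in the CA. Groups did not overlap for 622 genes higher in the DG (4.19 percent) and 711 higher in the CA (4.79 percent), 8.98 percent in all. The granule and CA3 lists had the other sign than in saline rats, with or without DG Sal 3. With all 8 saline libraries, the CA1 list (median -0.44, and -0.19 in saline rats) and the CA2 list (0.31 and 0.08) kept their sign. Without DG Sal 3 the saline medians were 0.04 for CA1 and -0.21 for CA2, so these lists also had opposite signs. Granule markers had 14 of 17 members higher in the DG, 6 of them at an unadjusted p under 0.05 (median 0.51), and CA3 markers had 7 of 10 higher in the DG (median 0.62). Over all genes tested in the METH libraries, 8030 of 14842 were higher in the DG. Bok was at 38 to 65.1 CPM in the DG and at 13.1 to 24.8 CPM in the CA of METH rats (1.26 ± 0.22), and Hpca at 383 to 691 CPM and 174 to 223 CPM (1.30 ± 0.19), again without overlap but with the DG above the CA. Nptx1 likewise turned, with 687 to 1053 CPM against 518 to 534 CPM (0.68 ± 0.13).

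Of the 1210 saline genes at an unadjusted p under 0.05, 1197 were tested in the METH libraries and 377 (31.5 percent) kept their direction, beside 48.6 percent of all 14491 genes tested in both. Without DG Sal 3, the share was 31.7 percent of 1032 genes, beside 46.4 percent of all. In the METH libraries 212 of the 1210 genes (17.5 percent) were at an unadjusted p under 0.05 with the opposite direction and 23 (1.9 percent of them, and 1.01 percent of the 2288 METH genes) with the same direction. The 583 genes higher in the CA of saline rats had medians of -0.54 there and 0.16 in METH rats on the log2 scale, and the 627 higher in the DG had 0.62 in saline and -0.07 in METH rats. Sox7 (0.10 ± 0.32), Myl9 (-0.07 ± 0.30) and Lama1 (-0.23 ± 0.27), the vessel genes, were near 0 in the METH libraries.

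A test of the difference itself, the interaction of region and treatment over the 16 libraries, gave 2353 of 15308 genes (15.4 percent) at an unadjusted p under 0.05 and 0 at an FDR under 0.05 with edgeR. The interaction had an FDR of 0.126 for Hpca, Bok, Grik4, Cpne4, Hspa2, Lama1 and Tnr, and 0.137 for Sox7. The region difference is thus not shown to differ between saline and METH rats for any single gene.

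**Figure D5:**
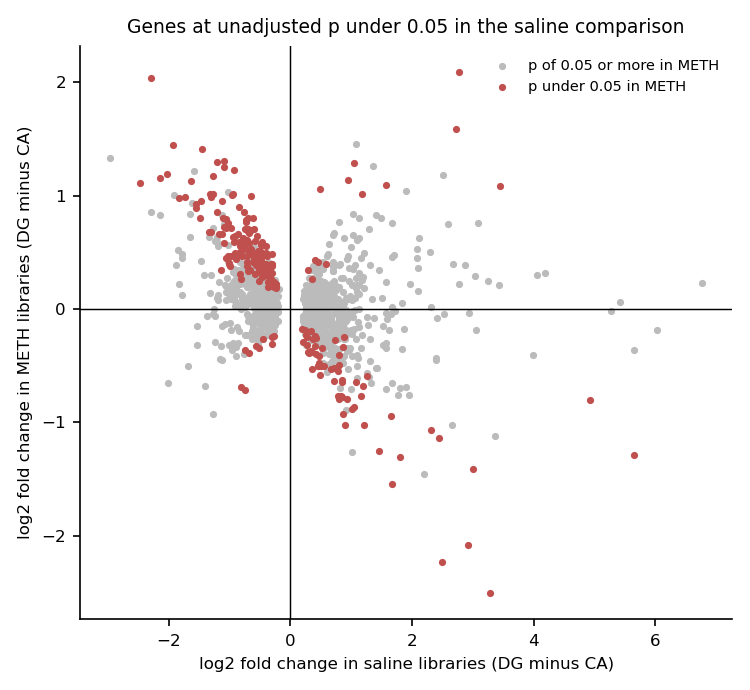
Log2 fold change of DG over CA in the saline libraries (horizontal) and in the METH libraries (vertical) for the 1197 saline genes at an unadjusted p under 0.05 that were tested in both, with genes at an unadjusted p under 0.05 in METH in red. Of the red points, 212 lie in the quadrants of opposite direction and 23 in those of the same direction.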

How the data were processed

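Total RNA of 8 libraries was sequenced after removal of ribosomal RNA, 4 of the DG and 4 of the CA of saline rats. The authors trimmed the reads with cutadapt 2.7, mapped them to rn6 with STAR 2.5.2b and deposited the read counts of featureCounts 1.6.3 per gene name, not normalized, counted as read pairs without regard to strand. Counts of overlapping genes and close paralogs are therefore uncertain, and 171 gene names lie on more than 1 chromosome. The methods name a UCSC annotation and the file headers an Ensembl annotation. The deposited count matrix of the series (14714 genes) served as an alternative only. No column of per-sample values was left unmapped.

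Counts were analysed with edgeR 4.0.16 (R 4.3.3): filterByExpr, upper-quartile normalization, quasi-likelihood fit of the 2 groups and Benjamini-Hochberg adjustment, fitted with and without DG Sal 3. The 8 METH libraries of both regions were fitted in the same way, and the interaction of region and treatment in all 16 libraries. A call needed an FDR under 0.01 and more than a 2-fold difference, and a wider call an FDR under 0.05. CPM are counts over the upper-quartile library sizes of the fit, and errors of log2 fold changes are SEs derived from the F statistic. DESeq2 1.42.0, TMM, total-count scaling, the likelihood ratio test, other filters, fits of 16 or 32 libraries, the replicate number, the RNA integrity number and 1 or 2 RUVr factors as covariates, and leaving out libraries were alternatives. RUVr was an alternative because its number of factors is not given in the sources used here, and it was written anew from its published steps. The fits were tested on simulated counts with less spread than the fit of the 8 libraries had and with no outlying library. That test cannot show which differences could have passed here. Python 3.11.15 (numpy 2.4.6, pandas 2.3.3, matplotlib 3.10.9) served for tables and plots.

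Replicate numbers are shared by the groups, and the deviations of same-numbered libraries from their group means correlated by 0.0514, -0.107, 0.0743 and 0.03. The main fit therefore did not pair the samples by these numbers. Such correlations cannot exclude shared animals, since single libraries stood far from their group in cell markers. Headers number DG Sal 3 and CA Sal 3 both as 22, and DG Sal 4 and CA Sal 4 both as 23. Replicates 1 and 2 have other numbers in the DG than in the CA. Named genes were the 10 per direction and fit with the lowest FDR or, where too few passed, the lowest p under 0.05 among genes with at least 1 CPM in the higher group and no overlap between groups, leaving out names that start with LOC, AABR, RGD or ENSRNOG. The defining genes of the marker lists and the 3 members with the lowest p of each list served as examples, and other members given with values were chosen after these were seen. The comparison, the lists and their members were chosen with earlier results of these data known. Markers were matched by gene symbol, and a list's number of members tested leaves out those that fell to the filter on low counts. Some of these examples are not reported here. Intervals and floors cover counting error only.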

Additional observations from a re-analysis of the deposited data

Results flagged for a closer look

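In 6 of 42 groups of 4 libraries and marker lists, a single library lay far from the other 3 in the summed level of the list (Dixon's test at 95%, which flags about 1 in 20 groups by chance). DG Sal 3 was the highest of the DG libraries for striatal medium spiny neuron markers (2057 CPM, next 336 CPM), for mossy cell markers (202 CPM, next 69 CPM, with Drd2, a gene of both the mossy and the indirect-pathway striatal neuron, at 83.3 CPM) and for microglial markers (309 CPM, next 247 CPM). DG Sal 4 was the highest of the DG libraries for choroid plexus markers (2292 CPM, next 188 CPM), and CA Sal 2 the highest of the CA libraries for the same list (2234 CPM, next 18.4 CPM). CA Sal 4 was the highest of the CA libraries for immediate early genes (889 CPM, next 367 CPM).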

How the results depend on the processing

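The count of genes past an FDR of 0.01 with a 2-fold difference was 0 in both directions under each alternative fit that was run. In the edgeR fit of 8 libraries it was also 0 with a fold limit of 1.5 and with an FDR of 0.05 and the 2-fold limit. At that second threshold DESeq2 had Myl9, Lama1 and Hspa2, and edgeR without DG Sal 1 and 2 had Pde1c. At an FDR under 0.05 the exceptions from 0 were DESeq2 (3 higher in the DG, 3 higher in the CA), DESeq2 without DG Sal 3 (1 higher in the DG), which was chosen after seeing the data as was leaving out DG Sal 3 and 4 together, and the fit without DG Sal 1 and 2 (1 higher in the DG). Counts at an unadjusted p under 0.05 moved more. When each library was left out in turn, genes higher in the DG numbered 247 (without CA Sal 1) to 1184 (without DG Sal 1) and genes higher in the CA 264 to 970 (the same libraries). The fit without DG Sal 1 and 2 gave 2030 and 1466, the RNA integrity number as a covariate 1283 and 928, RUVr with 2 factors 1281 and 1473, RUVr with 1 factor 993 higher in the CA, and the fit of all 32 libraries 1095 higher in the DG. Leaving out DG Sal 3 and 4 gave 341 higher in the DG and 355 in the CA. Granule markers at that p, 2 in the main fit, numbered 7 with the RNA integrity number and 9 with 2 RUVr factors. All of these were higher in the CA, and 15.1 and 18.8 percent of all genes were at that p in these 2 fits. The cause was not tested.

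With the replicate number as a block, 565 genes at an unadjusted p under 0.05 favoured the DG and 791 the CA, and 0 passed an FDR of 0.05. The block changed no call. Whether replicate numbers pair the samples is not known, and headers give replicates 1 and 2 other numbers in the DG than in the CA. In the METH libraries, leaving out each library in turn and the block were added after seeing the data, and the block gave 741 genes higher in the DG at an unadjusted p under 0.05.

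Of 1844 refits of 77 named genes, 1827 kept direction and side of the threshold, 7 passed an FDR of 0.05 under DESeq2 and 10 changed direction. No gene was under that FDR in the main fit and few fits held such a gene, so the side could hardly change. Refits also reuse the libraries from which most of these genes were chosen, so they do not test the direction in other samples. Vstm2l was at -0.46 without DG Sal 3 (edgeR and DESeq2), -0.40 without DG Sal 3 and 4, -0.09 with the block and -0.01 and -0.07 with 1 and 2 RUVr factors. Left out singly, the other libraries gave up to 0.27 for Vstm2l and up to 0.94 for Zfp521. Zfp521 was at -0.62 and -0.63 without DG Sal 3 (edgeR and DESeq2) and -0.64 without DG Sal 3 and 4, and Rgs9 at -0.59 without DG Sal 3 and 4. Groups of 4 with a common coefficient of variation of 0.35 in the DG limit what could pass, and the lowest levels named rest on single reads.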
